A study of Homo sapiens with 21 samples.

Results

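The neuronal cytoskeleton genes described here are the neurofilament subunits NEFL, NEFM and NEFH, the related intermediate filament genes INA and PRPH, the microtubule-associated genes MAPT (tau), MAP2 and DCX (doublecortin), the tubulin-binding gene STMN2 and the β-tubulin gene TUBB3. They were chosen by symbol, with earlier results of these data known, and are 10 of the 18132 genes measured on the arrays. Their shares beside those of all genes are therefore a description. Every probe set annotated to exactly 1 of the 10 symbols was collected, which gave 29 probe sets, and the brightest of them, averaged across the 21 arrays, stood for its gene. All 10 genes had such a probe set.

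RNA came from SH-SY5Y cells, a human neuroblastoma cell line, either wild type (WT) or mutated to carry APP-V717F, a substitution in the precursor of amyloid-β that occurs in inherited Alzheimer's disease. Before treatment, which lasted 72 h, all cells were differentiated with retinoic acid (10 µM) and the neurotrophin BDNF (50 ng/mL) over 3 to 4 days. The wild-type groups received vehicle (0.1% DMSO), AG494 (which blocks the tyrosine kinase of the EGF receptor), NOSCA or PALBO, and the mutated groups received vehicle, AG494 or NOSCA. Each of the 7 groups had 3 arrays, from 3 independent experiments per the series' design text. Doses are not given in the sources used here, and PALBO in mutated cells was not analysed here. There was 1 mutated line, so the APP change and any other difference between the lines cannot be told apart.

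Neurofilaments are polymers of light, medium and heavy subunits, joined in central neurons by α-internexin (INA) and in peripheral neurons by peripherin (PRPH). They fill the axon and set its calibre. Tau and MAP2 bind along microtubules, mainly in axons and in dendrites respectively, DCX does so in young migrating neurons, and STMN2 binds free tubulin and is needed for axon growth and regrowth. In SH-SY5Y cells treated with retinoic acid, neurofilament, tau, MAP2 and TUBB3 are widely used as marks of neuronal differentiation.

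The values are log2 RMA intensities, and a log2 difference of 1 is a doubling. A gene was called where limma, fitted over all 18132 genes and all 21 arrays, gave an adjusted p under 0.05. The titles number the arrays in 3 runs of 10, and each run holds 1 array of each group. Arrays of the same run deviated from their group means together (correlation over genes 0.226 to 0.685 in 63 pairs). The result of a fit with the run as a replicate block is therefore printed wherever it changes a call of the 10 genes. The medians of the arrays lay between 7.88 and 8.03. Of the 9 measured markers of noradrenergic neuroblasts, the cell type from which the line derives, none was among the dimmest 33.3% of genes, against 5 of 8 Schwann cell and glial markers and 2 of 10 mesenchymal markers (COL1A2 and PRRX1). In these bulk samples, fewer cells of a type and less RNA per cell cannot be told apart.

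The 10 genes differed widely in how far their group means spread. The group means of NEFM spanned 1.4 log2 units, from 9.83 in mutated cells under AG494 to 11.23 in wild-type cells under PALBO, against a pooled SD within groups of 0.13. DCX spanned 0.93, NEFL 0.87, MAPT 0.75, NEFH 0.72 and PRPH 0.65. The remaining genes varied little: INA and MAP2 spanned 0.36 each, TUBB3 0.29 and STMN2 0.23. PRPH and MAPT also had the widest spread within groups, with pooled SDs of 0.31 and 0.24. The lowest mean was in mutated cells under AG494 for NEFL, NEFM, NEFH, INA and MAP2, and the highest was in wild-type cells under PALBO for NEFM, NEFH, INA, DCX, MAPT, MAP2, STMN2 and TUBB3.

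**Figure D1:**
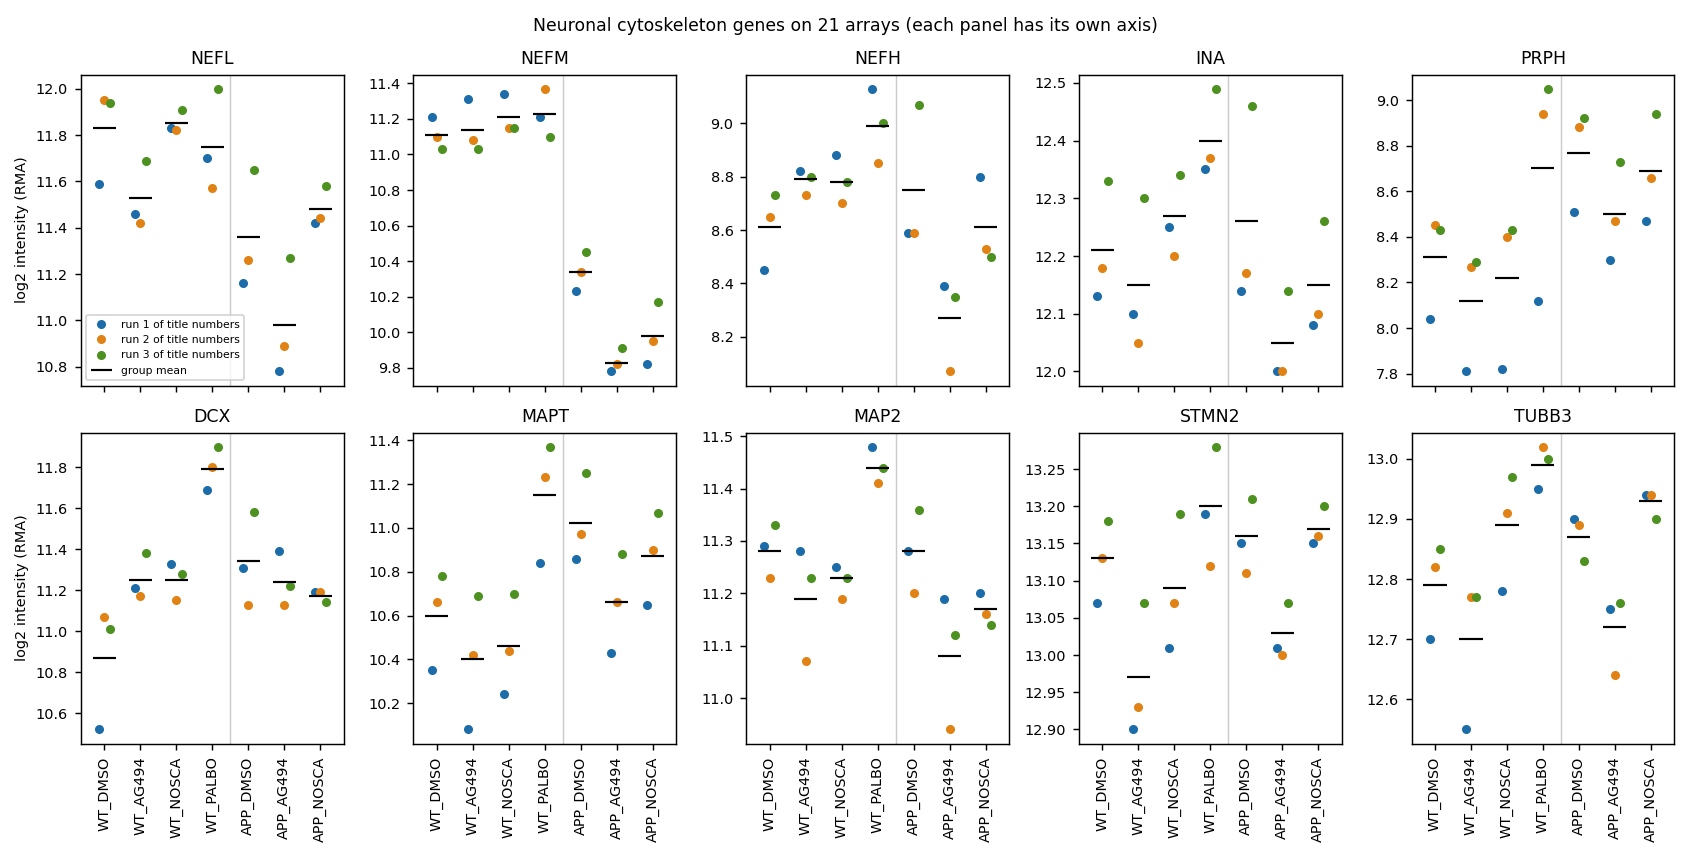
Each panel plots 1 gene's log2 RMA intensity on its own vertical axis for the 7 groups on the horizontal axis, with a point per array coloured by run of title numbers and a bar at the group mean (n = 3). NEFM shows all arrays of the mutated cells (right of the grey line) below all arrays of the wild-type cells, and DCX shows the PALBO arrays between 11.69 and 11.90 and above every other array.

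Under vehicle, the mutated cells had less NEFM and NEFL RNA than the wild-type cells and more DCX RNA. PRPH and MAPT were also higher in the mutated cells in each of the 3 runs, but were called with the replicate block and not without it. The other 5 genes, NEFH, INA, MAP2, STMN2 and TUBB3, differed by at most 0.14 and were not called. In all, 1 of the 10 genes was called higher and 2 lower, where 5.2% of all genes were called higher and 4.05% lower. With the replicate block it was 3 higher and 2 lower, against 10.2% and 7.14% of all genes. The median difference of the 10 genes was 0.07 and that of all genes 0.022.

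NEFM, the medium neurofilament subunit, stood at 11.21, 11.10 and 11.03 in wild-type cells under vehicle (runs 1, 2 and 3) and at 10.23, 10.34 and 10.45 in mutated cells. The arrays of the lines did not overlap, as for 9.18% of all genes in that direction. NEFM fell by 0.77 on the log2 scale (SE 0.10, limma adjusted p = 4e-05), a linear ratio of 0.586. The difference lay between -0.83 and -0.72 in the 13 alternative fits and stayed called in each of them.

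NEFL, the light subunit on which the filament is built, stood at 11.59, 11.95 and 11.94 in wild-type cells and at 11.16, 11.26 and 11.65 in mutated cells. The highest mutated array (run 3) was above the lowest wild-type array (run 1), but within each run the mutated array was the lower, with differences of -0.44, -0.68 and -0.29. NEFL fell by 0.47 (SE 0.14, limma adjusted p = 0.048; 0.0012 with the replicate block). This call was lost without the second or the third wild-type array (adjusted p = 0.17 and 0.14), without the first or the second mutated array (0.21 and 0.15), in a fit of these 6 arrays alone (0.16), and for the same probe set in a fit over all probe sets (0.053).

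NEFH, the heavy subunit, stood at 8.45, 8.65 and 8.73 in wild-type and at 8.59, 8.59 and 9.07 in mutated cells, so that it did not share the direction of the other neurofilament subunits (difference 0.14, SE 0.13, limma adjusted p = 0.61). INA, whose product assembles with the neurofilament subunits, differed by 0.05 (95% interval -0.14 to 0.24). The interval for NEFH, -0.12 to 0.41, does not reach the fall seen for NEFL or NEFM.

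PRPH stood at 8.04, 8.45 and 8.43 in wild-type and at 8.51, 8.88 and 8.92 in mutated cells. All mutated arrays were above all wild-type arrays, as for 13% of all genes, although PRPH also varied by run, from -0.32 in run 1 to 0.21 in run 3 on average over the groups. The difference was 0.46 (SE 0.22, limma adjusted p = 0.25), and within runs it was 0.47, 0.43 and 0.49, which gave an adjusted p of 0.003 with the replicate block. MAPT behaved alike: 10.35, 10.66 and 10.78 in wild-type against 10.86, 10.97 and 11.25 in mutated cells. Its difference was 0.43 (SE 0.18, limma adjusted p = 0.17; 3.8e-05 with the replicate block), and within runs it was 0.51, 0.30 and 0.47. With the probe sets of MAPT averaged, the difference was 0.44 and was called without the block as well (adjusted p = 0.036).

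DCX, which stabilises microtubules in young neurons, stood at 10.52, 11.07 and 11.01 in wild-type cells and at 11.31, 11.13 and 11.58 in mutated cells. DCX rose by 0.47 (SE 0.13, limma adjusted p = 0.024; 0.01 with the replicate block), but the size rested in part on the first wild-type array, the lowest of the 21. Without it the difference was 0.30 (adjusted p = 0.15). The call was also lost without the first or the third mutated array (0.49 with adjusted p = 0.056, and 0.35 with 0.13) and in a fit of these 6 arrays alone (0.2).

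Markers of other cell types and states also differed between the lines under vehicle. Of 10 mesenchymal markers 3 were called lower, the collagen gene COL1A1 (-1.19), the transcription factor gene SNAI2 (-1.15) and YAP1 (-0.48), and 1 higher, DCN (1.55), where 4.05% of all genes were called lower and 5.2% higher. The mean level of these markers per array was 8.56 to 8.61 in mutated and 8.53 to 8.88 in wild-type cells, and COL1A2 and PRRX1 were dim. Of 8 Schwann cell and glial markers, S100B was called lower (-1.01), with array means of 6.24 to 6.34 against 6.46 to 6.48. Of 9 noradrenergic neuroblast markers, CHGA was called higher (0.59) and DBH lower (-0.31), with array means of 11.64 to 11.73 against 11.53 to 11.92. None of 10 cycling-cell markers was called. With the replicate block KIF20A, a cycling-cell marker (-0.28), and GATA2, a noradrenergic neuroblast marker (-0.33), were also called lower, where 7.14% of all genes were. The part of these markers in the NEFM, NEFL and DCX differences was not tested.

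The deficit of NEFM in the mutated line was present under all 3 treatments that both lines received. Under AG494 NEFM stood at 11.31, 11.08 and 11.03 in wild-type and at 9.78, 9.82 and 9.91 in mutated cells, a difference of -1.31 (SE 0.10, limma adjusted p = 4.9e-08). Under NOSCA it stood at 11.34, 11.15 and 11.15 against 9.82, 9.95 and 10.17, a difference of -1.24 (SE 0.10, adjusted p = 1.3e-07). The 9 arrays of mutated cells, 9.78 to 10.45, all lay below the 12 arrays of wild-type cells, 11.03 to 11.37. Of all genes, 10.8% had their mutated arrays below the wild-type arrays under AG494 and 10.6% under NOSCA.

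Under AG494, NEFL and NEFH were also lower in the mutated line, so that all 3 neurofilament subunits were called, 3 of 10 genes where 4.92% of all genes were called lower. NEFL stood at 11.46, 11.42 and 11.69 in wild-type and at 10.78, 10.89 and 11.27 in mutated cells (difference -0.55, SE 0.14, limma adjusted p = 0.02). NEFH stood at 8.82, 8.73 and 8.80 against 8.39, 8.07 and 8.35 (difference -0.52, SE 0.13, adjusted p = 0.012). Neither subunit's arrays overlapped between the lines under AG494. The NEFL call was lost without the third wild-type AG494 array (adjusted p = 0.091) or the first or the second mutated AG494 array (0.1 and 0.086), and the NEFH call without the second mutated AG494 array (0.08). Of the cycling-cell markers, 8 of 10 were called lower in the mutated line under AG494 (median -0.49). With the replicate block it was 10 of 10, where 8.47% of all genes were called lower. Without the block, 1 of 10 mesenchymal markers was called higher and 2 lower. So were 1 of 8 Schwann cell and glial markers (lower) and 1 of 9 noradrenergic neuroblast markers (higher), where 4.1% of all genes were called higher. The part of these markers was not tested. PRPH (0.38) and MAPT (0.26) were called higher with the replicate block and not without it (adjusted p = 0.012 and 0.0035; 0.4 and 0.5 without it), where 8.45% of all genes were.

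Under NOSCA, NEFM was the only gene of the 10 called between the lines, where 3.65% of all genes were called lower. NEFL differed by -0.37, PRPH by 0.47 and MAPT by 0.41, each called with the replicate block and not without it (adjusted p = 0.0088, 0.0032 and 7.7e-05, against 0.15, 0.27 and 0.22 without it), where 6.79% of all genes were called lower and 7.99% higher with the block. NEFL was also called under NOSCA without the block in a fit of the 6 arrays alone (adjusted p = 0.036) and with its probe sets averaged (-0.46, adjusted p = 0.024). DCX, called between the lines under vehicle, differed by -0.01 under AG494 (95% interval -0.28 to 0.26) and by -0.08 under NOSCA (-0.35 to 0.19). Without the block, 2 of 10 cycling-cell markers and 1 of 8 Schwann cell and glial markers were called lower under NOSCA. Among 10 mesenchymal markers 1 was called higher and 2 lower, and among 9 noradrenergic neuroblast markers 1 higher and 1 lower. Of all genes, 3.56% were called higher. The part of these markers was not tested.

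**Figure D2:**
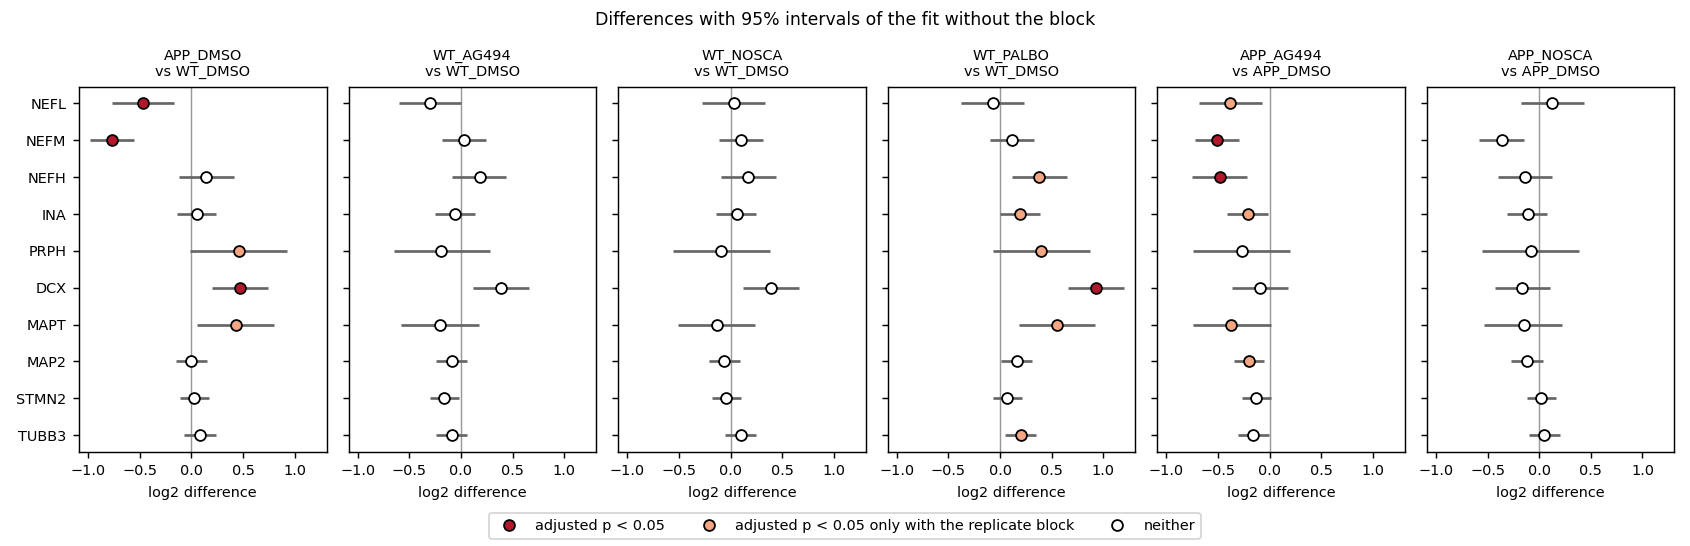
Log2 differences of the 10 genes (horizontal axis) with their 95% intervals in the 6 comparisons against vehicle or between lines under vehicle, from the limma fit over 21 arrays (3 per group). Filled red points were called in that fit, orange points only with the replicate block, and open points in neither, so that NEFM and NEFL lie left of 0 in the mutated line while DCX lies farthest right under PALBO.

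In mutated cells AG494 lowered the neurofilament subunits NEFM and NEFH. All 10 genes had a negative difference from vehicle, where 51.9% of all genes were negative. This held after a further quantile normalization or centring of the arrays on their medians. Without the third vehicle array 9 were negative and 1 positive. The median of the 10 differences was -0.24, and that of all genes -0.006. No gene of the 10 was called higher and 2 were called lower, where 1.99% of all genes were called higher and 2.76% lower. With the replicate block 6 were called lower, against 7.06% of all genes.

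NEFM went from 10.23, 10.34 and 10.45 under vehicle to 9.78, 9.82 and 9.91 under AG494, with no overlap, as for 10.9% of all genes in that direction. NEFM fell by 0.51 (SE 0.10, limma adjusted p = 0.0055), and by 0.46 to 0.54 within the runs. NEFH went from 8.59, 8.59 and 9.07 to 8.39, 8.07 and 8.35, also without overlap. NEFH fell by 0.48 (SE 0.13, adjusted p = 0.032), but within runs the difference ranged from -0.20 to -0.73. The NEFH call was lost without the third vehicle array, the highest of the group (-0.32, adjusted p = 0.2), without the second or the third AG494 array (0.19 and 0.06), and in a fit of these 6 arrays alone (0.16).

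NEFL, MAPT, INA and MAP2 were called under AG494 with the replicate block and not without it. With probe sets averaged per gene, NEFL (-0.43, adjusted p = 0.041) and MAP2 (-0.37, adjusted p = 0.018) were called without the block. NEFL was lower by the same amount in every run, -0.38 on the log2 scale, although its arrays overlapped between the groups (11.16, 11.26 and 11.65 under vehicle, 10.78, 10.89 and 11.27 under AG494; adjusted p = 0.17, and 0.0099 with the block). MAPT went from 10.86, 10.97 and 11.25 to 10.43, 10.66 and 10.88 (difference -0.37, adjusted p = 0.33, and 4e-04 with the block). INA differed by -0.21 (0.25, and 0.0096) and MAP2 by -0.20 (0.14, and 0.023). PRPH (-0.27), TUBB3 (-0.16), STMN2 (-0.13) and DCX (-0.09) passed in neither fit. DCX was the least affected, with a 95% interval of -0.36 to 0.18.

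AG494 moved the markers of dividing cells in the same cells. Of 10 cycling-cell markers 8 were called lower (median difference -0.55), where 2.76% of all genes were, and their mean level per array was 10.71 to 10.84 under AG494 against 11.27 to 11.34 under vehicle. Their part in the lower neurofilament values was not tested. No mesenchymal, Schwann cell, glial or noradrenergic neuroblast marker was called under AG494 in mutated cells without the replicate block. With the block all 10 cycling-cell markers were called lower. FN1 was then called higher (0.21, limma adjusted p = 0.037) and CHGA lower (-0.18, 0.033). Of all genes, 4.72% were called higher and 7.06% lower with the block.

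In wild-type cells PALBO raised DCX, and 9 of the 10 genes had a positive difference from vehicle, where 51.1% of all genes did. The median was 0.20, against 0.0037 for all genes. DCX was the 1 gene called, where 3.11% of all genes were called higher. With the replicate block 6 were called higher (DCX, MAPT, PRPH, NEFH, INA and TUBB3), against 7.7% of all genes. None was called lower, where 3.87% of all genes were, and 7.35% with the block.

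Markers of other cell states moved under PALBO as well. Of 10 cycling-cell markers 9 were called lower (median -0.60, array means 10.70 to 10.86 against 11.39 to 11.46), where 3.87% of all genes were. Of 10 mesenchymal markers 3 were called lower, YAP1 (-0.93), COL1A1 (-0.88) and the fibronectin gene FN1 (-0.43), and their array means were 8.31 to 8.54 against 8.53 to 8.88. S100B was called higher (0.95), 1 of 8 Schwann cell and glial markers, with array means of 6.53 to 6.57 against 6.46 to 6.48. CHGA (0.49) and ISL1 (0.43) were called higher, 2 of 9 noradrenergic neuroblast markers, with array means of 11.72 to 11.91 against 11.53 to 11.92, where 3.11% of all genes were called higher. With the replicate block BUB1, a cycling-cell marker (-0.49), and SNAI2, a mesenchymal marker (-0.8), were also called lower, where 7.35% of all genes were. The part of these markers in the values of the 10 genes was not tested.

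DCX went from 10.52, 11.07 and 11.01 under vehicle to 11.69, 11.80 and 11.90 under PALBO, and the lowest PALBO array was above the highest array of any other group. DCX rose by 0.93 (SE 0.13, limma adjusted p = 0.00018), a linear ratio of 1.9. Without the low first vehicle array the rise was 0.76 (adjusted p = 0.00062), and over the 13 alternative fits it was 0.76 to 1.09 and stayed called. The promoter of DCX is shown because DCX had the largest response of the 10 genes to a compound. In the 200 bases before the first RefSeq start of DCX (GRCh38.p14, chrX:111412193-111412392, minus strand), the capitals mark the letters TATAAA, found 190 bases before the start and thus not at the place of a core promoter TATA box.
DCX: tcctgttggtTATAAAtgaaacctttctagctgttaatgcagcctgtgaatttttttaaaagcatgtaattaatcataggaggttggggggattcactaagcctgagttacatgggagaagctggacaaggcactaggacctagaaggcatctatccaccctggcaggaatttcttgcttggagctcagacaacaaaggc
The DCX window holds 0 CG dinucleotides, where the median of 35114 RefSeq windows of this length is 9.

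MAPT went from 10.35, 10.66 and 10.78 to 10.84, 11.23 and 11.37 under PALBO, with no overlap, as for 10.7% of all genes in that direction. The difference was 0.55 (SE 0.18, limma adjusted p = 0.074), and within runs it was 0.49, 0.57 and 0.59, so that the replicate block gave an adjusted p of 6.7e-06. Without the first PALBO array, the lowest of its group, it was 0.70 and was called without the block as well (0.035), as it was with its probe sets averaged (0.58, adjusted p = 0.0087). PRPH went from 8.04, 8.45 and 8.43 to 8.12, 8.94 and 9.05. Its difference was small in run 1 (0.08) and larger in the others (0.49 and 0.62), with an adjusted p of 0.39 and of 0.011 with the block.

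The remaining genes differed less from vehicle under PALBO, and not all of them were higher. NEFH went from 8.45, 8.65 and 8.73 to 9.13, 8.85 and 9.00 (difference 0.38, limma adjusted p = 0.078; 0.027 with the replicate block; 0.015 with its probe sets averaged and no block). INA differed by 0.19 (0.28 and 0.015) and TUBB3 by 0.20 (0.11 and 0.04; 0.039 with a trended and robust prior and no block). MAP2 differed by 0.16 and STMN2 by 0.07, and neither passed in either fit. The arrays of NEFH, INA, MAP2 and TUBB3 did not overlap between PALBO and vehicle, as for 10.7% of all genes. NEFM (0.12) and NEFL (-0.07, the only negative value) were not called, with 95% intervals of -0.10 to 0.33 and -0.38 to 0.23. The subunits that fell in the mutated line under vehicle were thus not called under PALBO.

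AG494 and NOSCA gave no call among the 10 genes in wild-type cells, by limma without or with the replicate block, where 0.254% of all genes were called under AG494 and 0.0165% under NOSCA (1.97% and 0.419% with the block). At an unadjusted p under 0.05 there were 2 under AG494 (DCX and STMN2) and 1 under NOSCA (DCX), where 8.13% and 6.91% of all genes were. Under AG494 7 of the 10 genes had a negative difference, where 52% of all genes did. The median was -0.09, against -0.0053 for all genes. These 7 genes (NEFL, INA, PRPH, MAPT, MAP2, STMN2 and TUBB3) were each lower in all 3 runs. NEFL differed by -0.13, -0.52 and -0.25 within the runs (difference -0.30, limma adjusted p = 0.62). The difference of STMN2 was -0.16 (95% interval -0.30 to -0.02, adjusted p = 0.53). DCX differed by 0.39 under AG494 and by 0.39 under NOSCA (adjusted p = 0.29 and 0.49), with no overlap of arrays, as for 5.53% and 5.41% of all genes. These DCX values share the low first vehicle array, and without it both were 0.21. The 95% intervals differed in width between the genes: under AG494 that of PRPH was -0.65 to 0.28 and that of TUBB3 -0.24 to 0.06, and under NOSCA they were -0.56 to 0.38 and -0.05 to 0.25.

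NOSCA in mutated cells gave no call either, for the 10 genes or for any of the 18132 genes (0%; limma with the replicate block called 0.0276%). At an unadjusted p under 0.05 there was 1 of the 10 genes, NEFM, and 959 of all genes (5.29%). NEFM stood at 9.82, 9.95 and 10.17 under NOSCA, below all 3 vehicle arrays, as for 5.37% of all genes, with a difference of -0.36 (95% interval -0.58 to -0.15, adjusted p = 0.71). NEFL differed by 0.12 under NOSCA (-0.18 to 0.43), on the other side of 0 from its value under AG494.

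The responses of the lines to a compound were compared directly by an interaction term. AG494 changed NEFM by 0.03 in wild-type and by -0.51 in mutated cells, a difference of -0.54 (SE 0.14, limma adjusted p = 0.2; 0.081 with the replicate block). For NEFH the values were 0.18 and -0.48, a difference of -0.66 (SE 0.18, adjusted p = 0.21; 0.05 with the block, just above the threshold before rounding). For DCX they were 0.39 and -0.09, a difference of -0.48 (SE 0.18, adjusted p = 0.48). Without the low first wild-type vehicle array the DCX differences were -0.31 for AG494 and -0.38 for NOSCA. None of the 10 interactions was called in either fit, where 0.0386% of all genes were (1.26% with the block), and 3 had an unadjusted p under 0.05, those of NEFM, NEFH and DCX, where 7.53% of all genes did. For NOSCA none was called (0% of all genes, and 0.0165% with the block), and NEFM (-0.46, adjusted p = 0.94) and DCX (-0.55, adjusted p = 0.98) had an unadjusted p under 0.05, where 4.94% of all genes did. A different response of the lines was therefore not established for any of the 10 genes, and the NEFM interval for AG494, -0.84 to -0.24, bounds its size.

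The compounds were also set against each other in the same line, at doses that may differ. In wild-type cells PALBO gave higher values than AG494 for all 10 genes, where 53.8% of all genes were higher. DCX (difference 0.54, limma adjusted p = 0.022), MAPT (0.75, 0.023) and TUBB3 (0.29, 0.027) were called, 3 of 10 where 1.2% of all genes were called higher. With the replicate block 7 were called, the others being INA (0.25), PRPH (0.58), MAP2 (0.25) and STMN2 (0.23), against 3.95% of all genes. Against NOSCA, DCX (0.54, adjusted p = 0.022) and MAPT (0.68, adjusted p = 0.041) were called, 2 of 10 against 1.13% of all genes, and 4 with the replicate block (PRPH at 0.48 and MAP2 at 0.22 being added), against 3.17%. Of 10 cycling-cell markers, 8 were called lower under PALBO than under AG494 (median -0.42) and 9 than under NOSCA (median -0.57). Of 10 mesenchymal markers, 3 were called lower against each compound. Of all genes, 2.05% were called lower against AG494 and 2.1% against NOSCA. The part of these markers was not tested.

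Without the block, these calls between compounds were lost in several of the fits that left out 1 array. With the replicate block and all arrays, the limma adjusted p against AG494 was 0.0076 for DCX, 1.7e-06 for MAPT and 0.0065 for TUBB3. Against NOSCA it was 0.0081 for DCX and 3.1e-06 for MAPT. The fits that follow are without the block. Leaving out the first or the second AG494 array, or the second or the third PALBO array, each ended the DCX call against AG494 (0.49 to 0.54, adjusted p = 0.068 to 0.11) and the MAPT call (0.59 to 0.77, adjusted p = 0.068 to 0.15). The TUBB3 call was lost without the first AG494 array (adjusted p = 0.18) and without the second or the third PALBO array (0.094 and 0.097). In a fit of the 6 arrays compared alone, the MAPT calls had an adjusted p of 0.086 against either compound and the TUBB3 call against AG494 had 0.17, while the DCX calls held (0.033 against AG494 and 0.028 against NOSCA). Against NOSCA, the DCX call was lost without the second or the third NOSCA array or the second or the third PALBO array (adjusted p = 0.064 to 0.12), and the MAPT call without the first or the second NOSCA array or the second or the third PALBO array (0.13 to 0.23). PRPH was called against AG494 without the first PALBO array (0.87, adjusted p = 0.026), and STMN2 without the third AG494 array (0.28, adjusted p = 0.044).

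In mutated cells AG494 and NOSCA did not differ by a call without the block, where 1.56% of all genes were called, and 4 of the 10 genes had an unadjusted p under 0.05, where 10.9% of all genes did. NEFL was lower under AG494 than under NOSCA (10.78, 10.89 and 11.27 against 11.42, 11.44 and 11.58). The difference was -0.50 (limma adjusted p = 0.1, and 0.0029 with the replicate block). Without the third AG494 array NEFL was called (-0.65, adjusted p = 0.045). MAPT differed by -0.21 and was called with the block and not without it (0.8 and 0.034), where 2.79% of all genes were called lower. Of 10 cycling-cell markers, 5 were called lower under AG494 without the block (median -0.37), where 0.739% of all genes were. Their part was not tested.

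The run of title numbers moved some of the 10 genes as much as a treatment did. MAPT lay on average 0.24 below its group means in run 1 and 0.22 above them in run 3, and PRPH lay at -0.32 in run 1 and at 0.21 in run 3. For both genes the lowest of the 3 arrays was that of run 1 in 7 of 7 groups. NEFL also tended to be higher in run 3 (0.18), and NEFM did not follow the runs (0.01, -0.01 and 0.00). In the mutated line under vehicle and under PALBO in wild-type cells, both MAPT and PRPH were called in the fit over 21 arrays with the replicate block and not in that without it.

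**Figure D3:**
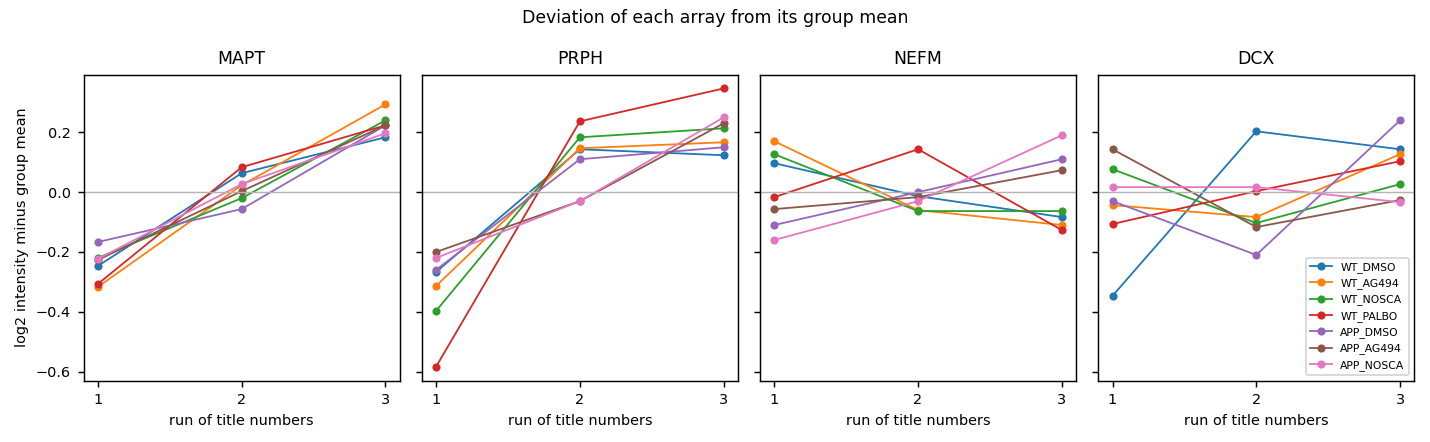
Deviation of each array from its group mean in log2 units (vertical axis) against the run of title numbers (horizontal axis) for 4 of the genes, with a line per group joining its 3 arrays. MAPT and PRPH are lowest in run 1 in all 7 groups, the mean deviation of NEFM is between -0.01 and 0.01 in every run, and the first wild-type vehicle array of DCX stands low.

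Genes of the set were also followed on their other probe sets, in a fit over all 44988 probe sets with 1 symbol. Under PALBO all 5 probe sets of DCX were called (0.93 to 1.25), where 5.95% of all probe sets were called. In the mutated line 3 of 5 DCX probe sets were called (0.45 to 0.60 over the 5), both of NEFM (-0.88 and -0.77) and 2 of 3 of NEFL (-0.51 to -0.47, the one that stood for NEFL having an adjusted p of 0.053), where 8.13% of all were called. Both NEFH probe sets were called lower under AG494 in mutated cells (-0.48 each), and 1 of 2 of NEFM, 1 of 3 of NEFL and 1 of 3 of MAP2, where 3.82% of all were. The probe sets of a gene share its RNA and are not replicates.

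MAPT had 6 probe sets, and the probe set that stood for it gave a smaller difference than some of the others. In the mutated line 2 of the 6 were called and the range was -0.13 to 0.70, and under PALBO 3 of the 6 were called and the range was -0.09 to 0.90. The negative value in each case came from the MAPT probe set with the lowest mean level over the arrays. TUBB3 had 1 probe set, of a design class that can also bind related sequences, so that its values may include other tubulin RNAs.

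**Figure D4:**
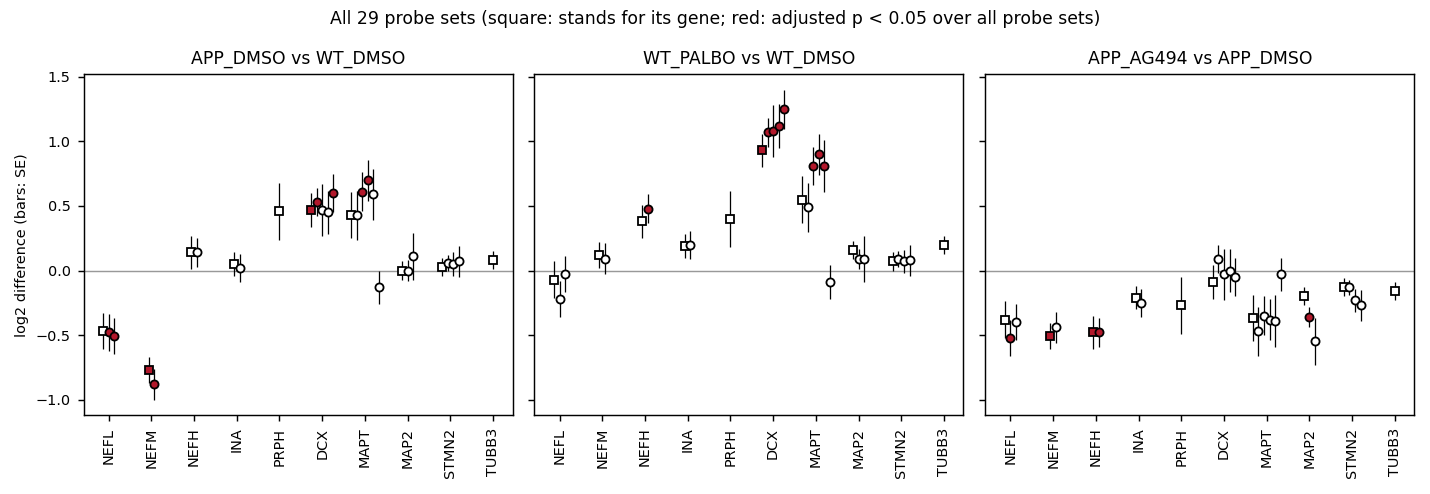
Log2 difference (vertical axis, bars show the SE) of each of the 29 probe sets, grouped by gene on the horizontal axis, in 3 comparisons of 3 against 3 arrays. Squares stand for their gene, red symbols were called over all probe sets, and all 5 DCX probe sets lie between 0.93 and 1.25 under PALBO.

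Over the 21 arrays, PRPH and MAPT varied most alike among the 10 genes (Pearson r = 0.91), and did so within groups as well (r = 0.89 for deviations from the group means). The arrays pool 7 groups and share runs, and the values are given as a description. NEFL and NEFM had r = 0.73 over the arrays and 0.85 over the 7 group means, but 0 within groups, whereas NEFL and INA had 0.85 within groups. NEFM and PRPH ran in opposite directions (r = -0.38). Among all other genes those most like NEFM were NCAN (0.972), TCEAL2 (0.972) and NRXN2 (0.971). Those most like MAPT were TTC9B (0.927), DPF3 (0.923) and LZTS3 (0.923), and those most like DCX were TTC5 (0.893), CACNA1B (0.883) and TMEM130 (0.865). The gene most like PRPH was FAM131B (0.925), the gene most like NEFL was PHF21B (0.912), and INA was closest to SCG3 (0.89) and to the axonal kinesin heavy chain KIF5C (0.89).

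The promoters of PRPH and INA are shown because these related filament genes differed in pattern: PRPH was higher in the mutated line in every run and INA was not. Each line gives the 200 bases before the RefSeq start (GRCh38.p14, plus strand), at chr12:49294947-49295146 for PRPH and chr10:103276938-103277137 for INA. The capitals mark TATAAA in PRPH, and GGGCGG (here on the other strand, as CCGCCC) and CAGCTG in INA.
PRPH: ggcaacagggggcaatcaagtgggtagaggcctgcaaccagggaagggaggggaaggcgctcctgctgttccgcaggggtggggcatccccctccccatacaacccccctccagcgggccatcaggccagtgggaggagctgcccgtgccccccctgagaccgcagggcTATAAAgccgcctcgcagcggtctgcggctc
INA: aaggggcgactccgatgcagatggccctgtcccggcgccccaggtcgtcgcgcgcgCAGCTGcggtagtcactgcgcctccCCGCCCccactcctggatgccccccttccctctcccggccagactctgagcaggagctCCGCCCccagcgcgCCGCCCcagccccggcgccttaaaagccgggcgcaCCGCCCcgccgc
TATAAA begins 31 bases before the start of PRPH, and 8.59% of 35114 such windows hold it on either strand. INA holds GGGCGG at 4 places and 24 CG dinucleotides. GGGCGG is held by 40.1% of the windows and CAGCTG by 11.6%. RefSeq promoter windows were matched for 5 of the 10 genes (INA, PRPH, DCX, MAP2 and TUBB3).

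Other genes of the neuronal cytoskeleton were taken from 7 lists with 124 genes, of which 117 were measured. The lists were chosen with earlier results of these data known, so their shares beside those of all genes are a description. In the mutated line under vehicle 9 of the 117 were called higher and 4 lower (7.69% and 3.42%, against 5.2% and 4.05% of all genes), and with the replicate block 29 and 8, against 10.2% and 7.14% of all genes. Under PALBO in wild-type cells 13 were called higher and 4 lower (11.1% and 3.42%, against 3.11% and 3.87% of all genes), and with the block 27 and 8, against 7.7% and 7.35% of all genes. Under AG494 in mutated cells none was called higher and 6 lower (5.13%, against 2.76% of all genes), and with the block 1 and 16, against 4.72% and 7.06% of all genes. Under AG494 in wild-type cells it was 1 and 1, against 0.165% and 0.0882% of all genes. NOSCA gave no call by limma in either line, with 9 of the 117 genes at an unadjusted p under 0.05 in wild-type and 6 in mutated cells, where 6.91% and 5.29% of all genes were, and 2 and 0 calls with the block, where 0.419% and 0.0276% of all genes were. Of these 38 calls, 20 were kept in each of the 6 fits that leave out 1 of the arrays compared: 9 of 13 in the mutated line, 7 of 17 under PALBO, 4 of 6 under AG494 in mutated cells and 0 of 2 under AG494 in wild-type cells. In fits of the 6 arrays compared alone, 15 of the 38 were called.

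Of 24 genes that bind microtubules or tubulin, 2 were called higher in the mutated line, 2 under PALBO and none lower in either, where 5.2% and 3.11% of all genes were called higher. With the replicate block 6 were called higher in each comparison, where 10.2% and 7.7% of all genes were. The difference was positive for 22 and 20 of the 24, where 56.1% and 51.1% of all genes were positive. MAP1A (0.54, limma adjusted p = 0.0021) and MAP6 (0.40, 0.0034), which both bind and stabilise microtubules, rose in the mutated line. MAP6 (0.44, adjusted p = 0.0024) and CAMSAP3 (0.29, 0.041), which binds microtubule minus ends, rose under PALBO. CAMSAP3 fell by 0.30 under AG494 in mutated cells (adjusted p = 0.041), but was not called there after a further quantile normalization (0.073) or centring (0.078), and neither of its calls was kept with every array left out in turn.

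Among the tubulin-modifying genes, ATAT1, which encodes the α-tubulin acetyltransferase, rose in the mutated line (0.48, limma adjusted p = 0.00087) and under PALBO (0.62, adjusted p = 0.00017), the 1 call of 18 genes each time, where 5.2% and 3.11% of all genes were called higher. With probe sets averaged per gene in place of the brightest, none of the 18 was called in either comparison. VASH2, a tubulin carboxypeptidase gene, fell by 0.55 under AG494 in mutated cells (adjusted p = 0.0033).

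Of 12 other tubulin isotypes measured, 1 was called lower in the mutated line, where 4.05% of all genes were. Under PALBO 1 was called higher and 2 lower, where 3.11% and 3.87% of all genes were. Under AG494 1 was called lower in each line, where 0.0882% of all genes were in wild-type and 2.76% in mutated cells. TUBB6 fell in the mutated line (-0.38, limma adjusted p = 0.021) and under PALBO (-1.03, adjusted p = 5.6e-06). TUBB4A, a neuronal β-tubulin, rose under PALBO (0.41, adjusted p = 0.011). TUBG1, the γ-tubulin of centrosomes, fell under PALBO (-0.33), under AG494 in wild-type (-0.30) and under AG494 in mutated cells (-0.27). Of the 6 fits that leave out 1 of the arrays compared, 3 kept the TUBB6 call in the mutated line and 4 the TUBB4A call. None kept the TUBG1 call under AG494 in wild-type cells. VIM, an intermediate filament gene of less mature and mesenchymal cells, fell in the mutated line (-0.36, adjusted p = 5e-04) and under PALBO (-0.41, adjusted p = 0.00034), the 1 call of 11 genes in its list.

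Of 21 measured regulators of tau and neurofilament phosphorylation, 1 was called higher and 1 lower in the mutated line, and the same under PALBO. Of all genes, 5.2% were called higher and 4.05% lower in the mutated line, and 3.11% and 3.87% under PALBO. Under AG494 in mutated cells 1 was called lower, where 2.76% of all genes were. CDK5R1, the p35 activator of CDK5, rose in the mutated line (0.36, limma adjusted p = 0.0064) and under PALBO (0.31, adjusted p = 0.023), and fell by 0.39 under AG494 in mutated cells (adjusted p = 0.0065). PPP2R2B, a regulatory subunit of the tau phosphatase PP2A, fell in the mutated line (-1.69, adjusted p = 5.3e-06) and under PALBO (-0.73, adjusted p = 0.022). No other of the 21 genes measured in this list was called in these 3 comparisons without the replicate block. With the block CDK5R2 (0.39), TTBK1 (0.38), FYN (0.22) and CDK5 (0.2) were also called higher in the mutated line. That made 5 of 21, where 10.2% of all genes were. CDK5R2 and CDK5 were also called higher under PALBO with the block, and MAPK8 lower under AG494 in mutated cells. Leaving out 1 array kept the PALBO calls of CDK5R1 in 2 and of PPP2R2B in 3 of 6 fits.

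Axonal motor and growth cone genes made up 8 of the 13 genes called higher under PALBO. Their lists held 16 and 15 of the 117 measured genes. Of these, 5 and 3 were called higher under PALBO, where 3.11% of all genes were. With the replicate block it was 7 and 7, where 7.7% of all genes were. Among 16 motor genes, KIF5A (0.65, limma adjusted p = 0.047), KLC1 (0.40, 0.046) and KIF5C (0.34, 0.026), subunits of the kinesin that carries neurofilaments and other cargo along axons, were among 5 that rose. That count was 2 after a further quantile normalization and 3 after centring the arrays on their medians, 0 in a fit of the 6 arrays alone, and 0 without the second or the third PALBO array and 1 without the first or the second vehicle array. In the mutated line KIF3C (0.40) and KIF3B (0.34) rose and KIF21A fell (-0.24), of which the KIF3B call alone was kept with each array left out. Of all genes, 5.2% were called higher and 4.05% lower in the mutated line. Of 15 growth cone and axon genes, NFASC (0.92, adjusted p = 1.4e-05), CNTN2 (0.81, 0.0041) and DPYSL4 (0.25, 0.018) rose under PALBO, and ANK3 (0.79, 0.031), CNTN2 (0.76, 0.0052) and CNTN1 (0.58, 0.00078) rose in the mutated line. NFASC, CNTN1 and CNTN2 are adhesion proteins of the axon, and ANK3 organises its initial segment. NFASC also rose under AG494 in wild-type cells (0.51, adjusted p = 0.028), and DPYSL5 (-0.45, 0.01) and CNTN1 (-0.37, 0.042) fell under AG494 in mutated cells. Of all genes, 0.165% were called higher under AG494 in wild-type and 2.76% lower in mutated cells. ANK3 was not called after a further quantile normalization (0.052), NFASC under AG494 not after centring (0.056), DPYSL4 not after centring (0.067), and CNTN1 under AG494 not after either (0.069 and 0.11). The comparisons of the mutated line and of PALBO share the wild-type vehicle arrays.

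**Figure D5:**
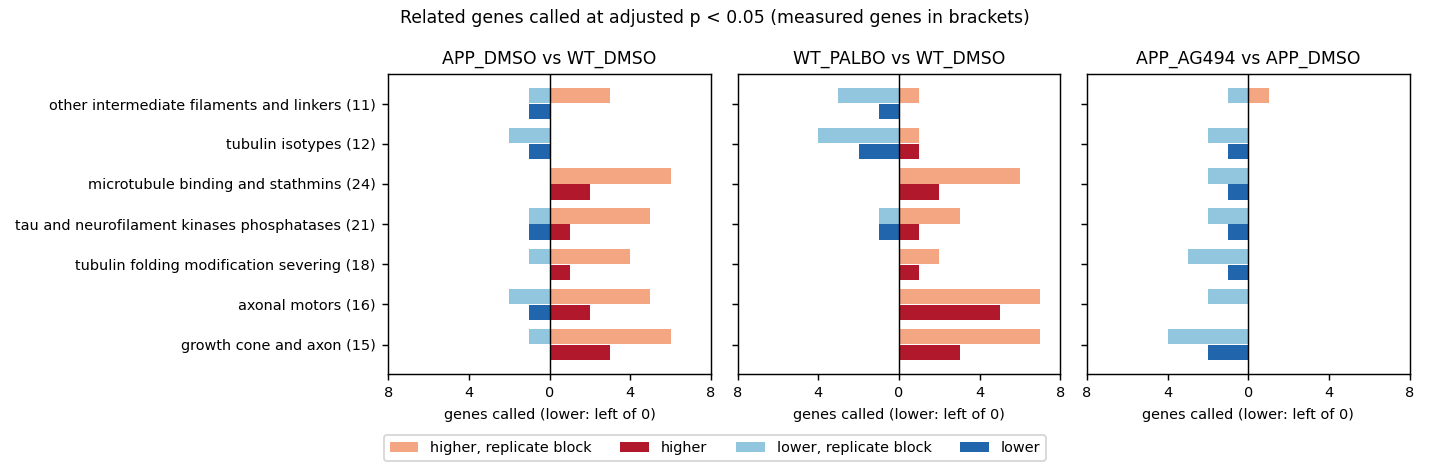
Numbers of genes called higher (right of 0, red) and lower (left of 0, blue) in 7 lists of related cytoskeleton genes, with the measured genes in brackets, for 3 comparisons of 3 against 3 arrays. Dark bars give limma without and pale bars with the replicate block; under PALBO the motors have 5 higher and 0 lower, and under AG494 in mutated cells every dark bar is on the lower side.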

How the data were processed

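The deposited log2 values come from Affymetrix PrimeView arrays hybridised with amplified RNA (25 ng, per the labels' protocols) and summarised by RMA with affy, per the submitters' processing notes; versions are not given in the sources used here. RMA had already background-corrected and quantile-normalized the values. Of 49372 probe sets, 44988 carried exactly 1 symbol in the platform annotation, and the brightest on average stood for each of 18132 genes. limma 3.58.1 (R 4.3.3; lmFit and eBayes) was fitted over all 21 arrays with 1 coefficient per group and no covariate (14 residual degrees of freedom), with 13 contrasts, two-sided, Benjamini-Hochberg adjusted over all genes within each contrast. The script was tested on simulated data.

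The title runs pair the arrays. Arrays of the same run had their deviations correlated at 0.226 to 0.685, and 21 of 21 arrays were closest to their own run. Those of other runs and groups were correlated at -0.529 to 0.0889 (126 pairs). Deviations within a group sum to 0, so positive correlations within runs lower those between runs, and the ranges are not independent. The labels do not say what the runs are.

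From each list of related genes, up to 3 called genes per direction with the largest difference were named in the 6 comparisons against vehicle or between lines under vehicle. For likeness, the 3 genes with the highest Pearson correlation per gene were taken, and some of them are printed. The members and lists were chosen with earlier results of these data known.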

Additional observations from a re-analysis of the deposited data

How the results depend on the processing

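Alternatives were another quantile normalization, centring on array medians, leaving out the dimmest 33.3% of genes, probe sets averaged per gene, all probe sets tested, a trended and robust prior, the replicate block, only the groups compared, and leaving out each array. Over 130 values (10 genes, 13 comparisons) and 1810 alternatives, no called value changed sign, and 54 values called in neither fit did (the largest at 0.14). Of 195 alternatives to the 15 called values, 156 kept the call and 39 lost it. The 5 values never lost were DCX under PALBO, and NEFM between the lines under each treatment and under AG494 in mutated cells. These tallies leave out the fit over all probe sets. In that fit the NEFL call between the lines under vehicle, for example, was lost (limma adjusted p = 0.053).

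With the replicate block, genes called went from 3 to 5 in the mutated line under vehicle, from 3 to 5 under AG494 and from 1 to 4 under NOSCA, from 1 to 6 under PALBO, from 2 to 6 under AG494 in mutated cells, from 3 to 7 and from 2 to 4 for PALBO against AG494 and NOSCA, and from 0 to 2 for AG494 against NOSCA in mutated cells. The paired fit changed no other count. With only the groups compared, it was 1 in the mutated line under vehicle, 2 between the lines under NOSCA, 1 under AG494 in mutated cells, and 1 for PALBO against each of AG494 and NOSCA. With averaged probe sets and with all probe sets, it was 4 in the mutated line under vehicle, 3 under PALBO, 4 under AG494 in mutated cells and 2 between the lines under NOSCA. The trended prior gave 2 under PALBO and 5 for PALBO against AG494, as did leaving out dim genes (5).

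Leaving out 1 array gave 1 to 2 in the mutated line under vehicle, 1 to 2 under PALBO, 1 to 2 under AG494 in mutated cells, 1 to 3 between the lines under AG494, 0 to 4 and 0 to 2 for PALBO against AG494 and NOSCA, and 0 to 1 for AG494 against NOSCA in mutated cells. Centring turned the split of all genes called in the mutated line from 942 higher and 735 lower to 669 and 962 (765 and 878 after quantile normalization), and that under AG494 in mutated cells from 361 and 500 to 432 and 358 (450 and 413). In the mutated line it turned the signs of the 10 genes from 7 positive to 5. The number of arrays limits the precision.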
